A study of Mus musculus with 12 samples.

Results

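H19, Meg3, Rian, Mirg, Dlk1, Peg3, Mest, Plagl1, Grb10 and Peg10 are imprinted genes with known roles in muscle and embryonic growth. These 10 genes were looked up by name in 3 tables that hold rows for 10289 different genes in all. H19, Peg3, Peg10, Plagl1 and Grb10 had a row and therefore a value. Meg3, Rian, Mirg, Dlk1 and Mest had none. The cells were C2C12, a mouse myoblast line that divides in serum-rich growth medium (GM) and fuses into myotubes when serum is lowered. All groups were stable lines made with a lentiviral vector that drives its insert from a CMV promoter and carries a puromycin resistance gene, and unmodified cells were not analysed here. GFP-overexpressing control cells were sequenced in GM (day 0) and after 4 days in differentiation medium (D4), while cells given mouse Mettl3 or Mettl14 cDNA were sequenced in GM. Each of these 4 groups had 2 RNA-seq libraries. The titles place the Mettl14 libraries at day 0, whereas their time point field says D4. Another 4 libraries, of RNA captured with an antibody against N6-methyladenosine (m6A) and of its input, were not analysed here.

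Imprinted genes are transcribed mainly from the maternal or the paternal chromosome, according to DNA methylation marks set in the germ line. Many of them act on growth before birth, and genes expressed from the paternal chromosome often promote growth while genes expressed from the maternal one often restrain it. They lie in clusters that share an imprinting control region, so that noncoding RNAs and protein-coding genes of a cluster can be expressed from opposite chromosomes. In the muscle lineage H19, Dlk1 and Peg3 are known for expression in fetal muscle or its progenitors. The RNA-seq values are sums over both alleles and carry no information on the allele of origin.

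Each table belongs to a comparison with GFP-overexpressing cells in GM (D4, Mettl3 or Mettl14) and holds only genes that passed the FDR limit of 0.05 set by the authors. The fold changes and p-values in them are the authors' own comparisons and were not used, so no direction or size of a change is given for any gene. The remaining measurement is the mean normalized count, which the authors averaged over libraries after scaling each library for its depth. It is a single value per gene without a spread between libraries, and no difference between groups could be tested with it. For the 1746 genes that had a row in more than 1 table it was the same in each (largest relative difference 4.77e-10). The mean was therefore taken over the same libraries for each comparison, and so over libraries of several groups. The number of these libraries is not given in the sources used here. Of the 8 RNA-seq libraries, 6 are of cells at day 0 by their titles. The read depth of a library cannot be read from this mean.

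The D4 table had rows for 5 of the 10 genes, where 32.0% of all annotated genes of the same types (9161 of 28672 protein-coding, lincRNA and processed transcript genes of GENCODE M21) had a row. The Mettl3 table had a row for 1 of the 10 (background 6.05%) and the Mettl14 table for 1 (background 3.81%). Of the annotated genes, 33.6% had a row in any table and 2.23% in all of them. The background counts annotated genes, expressed in C2C12 cells or not, and was not a count of genes tested. Peg3 was the member with a row in all 3 tables, and H19, Peg10, Plagl1 and Grb10 had a row in the D4 table alone. All 3 comparisons share the GFP libraries of day 0, so rows in several tables are not independent of each other. A gene without a row may be unexpressed, may have been left out by the authors' filters, or may have missed the FDR limit, and these cases cannot be told apart. Looking the genes up by Ensembl identifier in place of name gave the same 5.

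Markers of the labelled cells had rows, but as means pooled over groups they do not show in which group a marker was expressed. A row means that a gene passed the FDR limit of a comparison, so these counts are not evidence of cell type. Beside them, 33.6% of the annotated genes of the members' types had a row in any table. A marker without a row may be unexpressed or may have missed the limit. All 6 myoblast markers had a row, from 21.7 for Pax7, a satellite cell transcription factor, to 26440 for Itga7, a muscle integrin subunit. Among them were Myod1, the master transcription factor of the lineage, with a mean normalized count of 1845, and desmin (Des), the muscle intermediate filament protein, with 24157. All 6 myotube markers had one too, from 2124 for Myog to 53546 for Acta1. Of 10 markers of endothelial, blood, fat, nerve and epithelial cells, Cdh1 alone had a row, at 13.8. The overexpressed genes Mettl3 and Mettl14 stood at means of 5827 and 6250.5, each with a row in its own table. Mettl14 also had a row in the D4 table, and Mettl3 did not. As means pooled over groups, these values do not give the level in control or in overexpressing cells alone.

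H19 had the highest level of the 5 members with a value. It encodes a maternally expressed long noncoding RNA and lies 72622 bases from Igf2, with which it shares an imprinting control region. H19 (ENSMUSG00000000031) occupies chr7:142575529-142578143 of GRCm38 on the minus strand and has 7 annotated transcripts, of which the longest counts 2286 nt in 5 exons. Its mean normalized count was 24619. Among the 241 genes that the tables class as lincRNA it ranked 3rd by this count, and the median of that class was 21.8. Per kb of the longest transcript its level was 10769.5, higher than that of 99.7% of the 10285 listed genes with an annotated length, whose median was 135 per kb. Igf2, the paternally expressed growth factor gene of the same domain, had a mean normalized count of 12.7 and a level of 2.68 per kb.

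H19 also contains the hairpin of miR-675, a microRNA processed from an H19 exon. The hairpin gene Mir675 (chr7:142577064-142577147, minus strand) had no row in any table, and mature microRNAs were not measured. Both arms are shown because H19 is the listed member that hosts a microRNA. The seed, bases 2 to 8, is in capitals, and the sequences and positions are RefSeq's on GRCm38.p6.
mmu-miR-675-5p: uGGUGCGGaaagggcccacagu
mmu-miR-675-3p: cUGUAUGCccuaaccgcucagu
The arms differ in their seeds, and neither seed occurred in the other 12 mature microRNAs examined from member loci.

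Peg3 was next, and was the member with a row in the D4, the Mettl3 and the Mettl14 table. Its product PW1 is a large zinc finger protein, expressed from the paternal chromosome and known as a marker of progenitor cells in muscle and other tissues. Peg3 (ENSMUSG00000002265) lies at chr7:6703892-6730431 on the minus strand, and its longest transcript has 8694 nt in 9 exons. The mean normalized count was 5943. On the scale per kb this corresponds to 684, higher than 88.4% of the listed genes and 15.8 times lower than H19. With all annotated exons merged (13324 nt) in place of the longest transcript it was 446 per kb, and the ratio to H19 became 22.4.

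The start of Peg3 and that of Usp29, transcribed in the opposite direction, lie 146 bases apart. Usp29, a ubiquitin peptidase gene, had rows in all 3 tables, with a mean normalized count of 47.9 and a level of 6.36 per kb. Zim1, a zinc finger gene expressed from the maternal chromosome, also had rows in all 3 tables, with a mean normalized count of 522 and a level of 67.8 per kb. The 4th gene of the domain on the list, Zfp264, is annotated as a pseudogene and had no row. Among the listed genes of its domain that had a value, Peg3 was thus at the highest level on both scales. In GENCODE M21 no annotated exon of another gene overlaps the exons of Peg3. By that annotation its reads are not shared with a neighbour even without strand, but the authors' release was not checked. Exons of H19 overlap Mir675, Gm27483 and Gm27786, and those of Plagl1 overlap Gm27741. Each overlap covers at most 3.41% of the member's exons, and none of these overlapping genes had a row.

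The RefSeq promoter window of Peg3 (250 bases before to 50 after the start) is shown because its gene had a row in every table. It lies at chr7:6730370-6730669 on the minus strand of GRCm38.p6. CpG dinucleotides, the targets of the methylation that marks imprinted promoters, are in capitals.
Peg3: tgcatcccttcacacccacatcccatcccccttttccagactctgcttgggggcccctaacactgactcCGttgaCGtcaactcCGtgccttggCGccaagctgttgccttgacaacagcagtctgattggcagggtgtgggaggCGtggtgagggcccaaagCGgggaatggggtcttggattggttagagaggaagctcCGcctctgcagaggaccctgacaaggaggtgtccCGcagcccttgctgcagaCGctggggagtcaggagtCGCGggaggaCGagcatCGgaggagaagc
It holds 13 CpG in 300 bases, at a GC content of 61.3%. The median of all 32851 RefSeq windows of this length was 7 CpG, and 62.1% of them held fewer than Peg3. Methylation of DNA was not measured in these samples.

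Peg10, a paternally expressed gene derived from a retrotransposon and needed for the placenta, followed Peg3. Peg10 (ENSMUSG00000092035) lies at chr6:4747306-4760517 on the plus strand with a transcript of 6667 nt in 2 exons. Its mean normalized count was 1010.3, its level 152 per kb, and 53.0% of the listed genes lay below it on the scale per kb. Sgce, which encodes epsilon-sarcoglycan and starts 98 bases away on the opposite strand, stood at 618, or 140 per kb. The longest annotated transcript of Sgce, on which this value rests, has 4416 nt in 1 exon. With all annotated exons merged Sgce stood at 58.2 per kb and Peg10 still at 152, so how far apart the neighbours lie depends on the length used. Peg10 and Sgce had a row in the D4 table alone. Of the other genes of the domain on the list, Pon2, Casd1 and Ppp1r9a had a row, at 376, 66.1 and 0.865 per kb, and Pon3 and Asb4 had none. Ppp1r9a had rows in all 3 tables, at a mean normalized count of 8.26. Casd1 had rows in the D4 and Mettl14 tables, and Pon2 in the D4 table. Pon2 lay above Peg10 per kb of the longest transcript, but at 145 per kb of merged exons it lay below. Its longest annotated transcript also has 1 exon (2834 nt).

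Plagl1 and Grb10 had rows at very low levels. Plagl1 (also Zac1), a paternally expressed zinc finger transcription factor known to regulate other imprinted genes, lies at chr10:13060504-13131694 (ENSMUSG00000019817, plus strand). Its mean normalized count was 18.0 and its level 3.42 per kb, above 5.18% of the listed genes. It stood 44.3 times below Peg10 on the scale per kb. Grb10 (ENSMUSG00000020176, chr11:11930508-12038683, minus strand) encodes an adaptor that binds the insulin and IGF1 receptors and restrains their signal. Its mean normalized count was 8.39 and its level 1.66 per kb, above 2.27% of the listed genes. The Plagl1 level was 2.06 times that of Grb10 per kb, and no error can be attached to this order. Of the listed genes, 6.35% had a mean normalized count under 10, Grb10 among them.

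Grb10 has a pair of RefSeq promoter windows that differ in composition. The window at chr11:12037371-12037670 held 45 CpG at 80.0% GC, and 98.1% of all windows held fewer. The other, at chr11:12027922-12028221, held 9 CpG at 52.3% GC. The mean normalized count is of the whole gene and does not say which promoter was used. The Plagl1 window, shown as the example of a CpG-rich promoter with a gene level near the bottom of the listed range, lies at chr10:13090582-13090881 on the plus strand, with CpG in capitals.
Plagl1: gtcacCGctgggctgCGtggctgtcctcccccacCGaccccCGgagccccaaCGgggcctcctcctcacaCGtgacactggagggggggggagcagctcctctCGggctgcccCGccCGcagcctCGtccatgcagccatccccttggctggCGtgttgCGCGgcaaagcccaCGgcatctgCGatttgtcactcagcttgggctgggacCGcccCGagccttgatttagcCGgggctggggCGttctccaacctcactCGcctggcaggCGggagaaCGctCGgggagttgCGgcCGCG
It holds 26 CpG at 70.7% GC, and 83.1% of all windows held fewer.

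**Figure D1:**
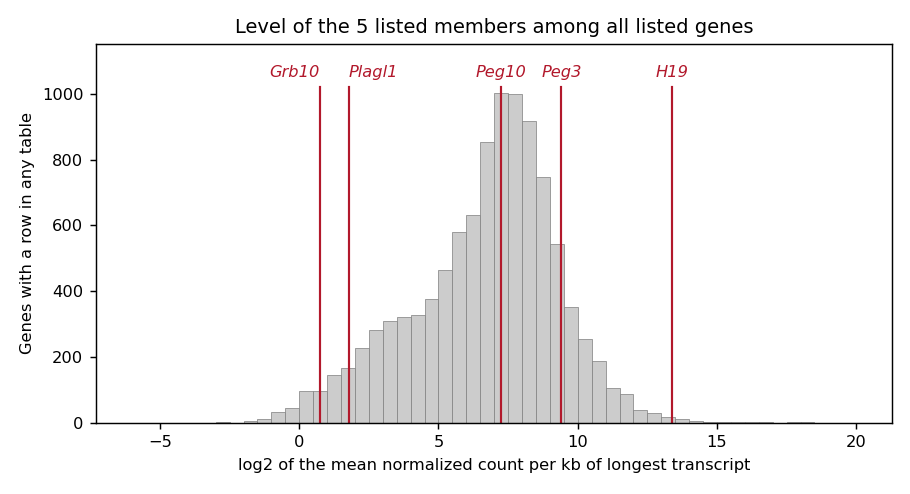
Number of genes with a row in any table (y axis) by log2 of the mean normalized count per kb of the longest transcript (x axis), in bins of 0.5, with red lines at the 5 members that have a value. H19 lies in the upper tail (99.7% of genes below), Peg3 above most genes, Peg10 near the median and Plagl1 and Grb10 in the lower tail.

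**Figure D2:**
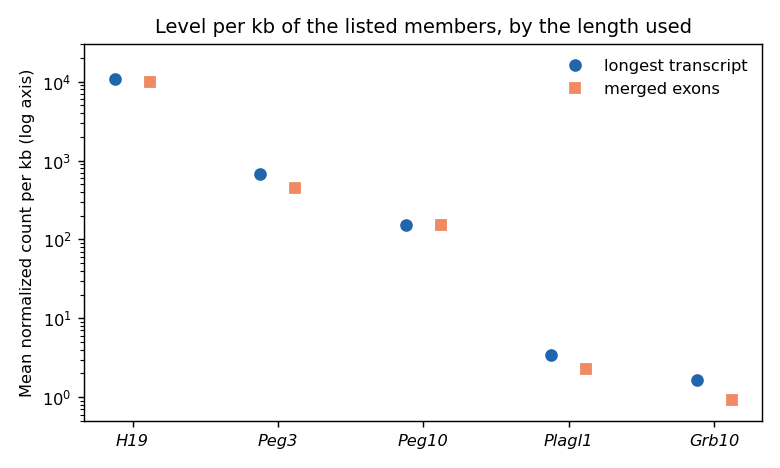
Mean normalized count per kb (log y axis) of the 5 members with a value (x axis), divided by the length of the longest transcript (circles) or of all merged exons (squares). The order of the genes is H19, Peg3, Peg10, Plagl1 and Grb10 with either length, and the points carry no error bars because each rests on a single pooled mean.

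The order of the 5 levels per kb, H19 at 10769.5, Peg3 at 684, Peg10 at 152, Plagl1 at 3.42 and Grb10 at 1.66, was the same with either length. It is an order of means pooled over groups, and the order or the folds may differ within any one group, the more so as all 5 genes had a row in the D4 table. H19 and Grb10 differed 6498-fold with the longest transcript and 10844-fold with merged exons. Peg10 and Plagl1 were the neighbours farthest apart in this order and Plagl1 and Grb10 the closest. The median of the 5 mean normalized counts was 1010.3, beside a median of 458 over the 10289 listed genes, but these 5 are the members that passed the authors' limit and not all 10.

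The other 5 genes had no row. Dlk1, Meg3, Rian and Mirg belong to a single imprinted domain of chromosome 12 and lie within 296638 bases on the plus strand. Dlk1 (ENSMUSG00000040856, chr12:109452823-109463336) encodes a paternally expressed transmembrane protein related to Notch ligands. Meg3 (ENSMUSG00000021268, chr12:109541001-109571726) begins 77664 bases further on and encodes a maternally expressed long noncoding RNA. Rian (ENSMUSG00000097451, chr12:109603940-109661716) is a maternally expressed host of small nucleolar RNAs, and Mirg (ENSMUSG00000097391, chr12:109729764-109749460) a maternally expressed host of microRNAs. Of the other genes of this domain on the list, Rtl1 and Dio3 had no row either, and Begain had one in the D4 table with a mean normalized count of 4.73. Mest (ENSMUSG00000051855, chr6:30723547-30748465, plus strand) encodes a paternally expressed protein of the hydrolase fold family. Its neighbour Copg2 on the opposite strand, which shares 912 bases of annotated exon with Mest, had a row in the D4 table with a mean normalized count of 669. The strand setting of the counting is not given in the sources used here, so reads from those shared bases may have been counted for either gene or left out.

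RefSeq places 20 microRNA hairpins on the same strand inside 5 of the members, with 14 in Mirg, 3 in Rian and 1 each in H19, Meg3 and Mest. Of these hairpins, 6 lie wholly in an annotated exon, 9 in an intron and 5 partly in an exon. None of the 20 hairpin genes had a row in any table. GENCODE M21 also annotates the microRNA gene Mir1906-1 over 80 bases of Meg3 exon on the same strand. It is not among the 20 and had no row either. The share of all annotated microRNA genes with a row was not counted, so this is not a result about these loci. Those with the lowest numbers are Mir134 and Mir154 in Mirg, Mir341 and Mir370 in Rian, Mir770 in Meg3 and Mir335 in Mest. With Mir675 they give 14 mature microRNAs with 14 different seeds, so none of them forms a seed family with another.

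**Figure D3:**
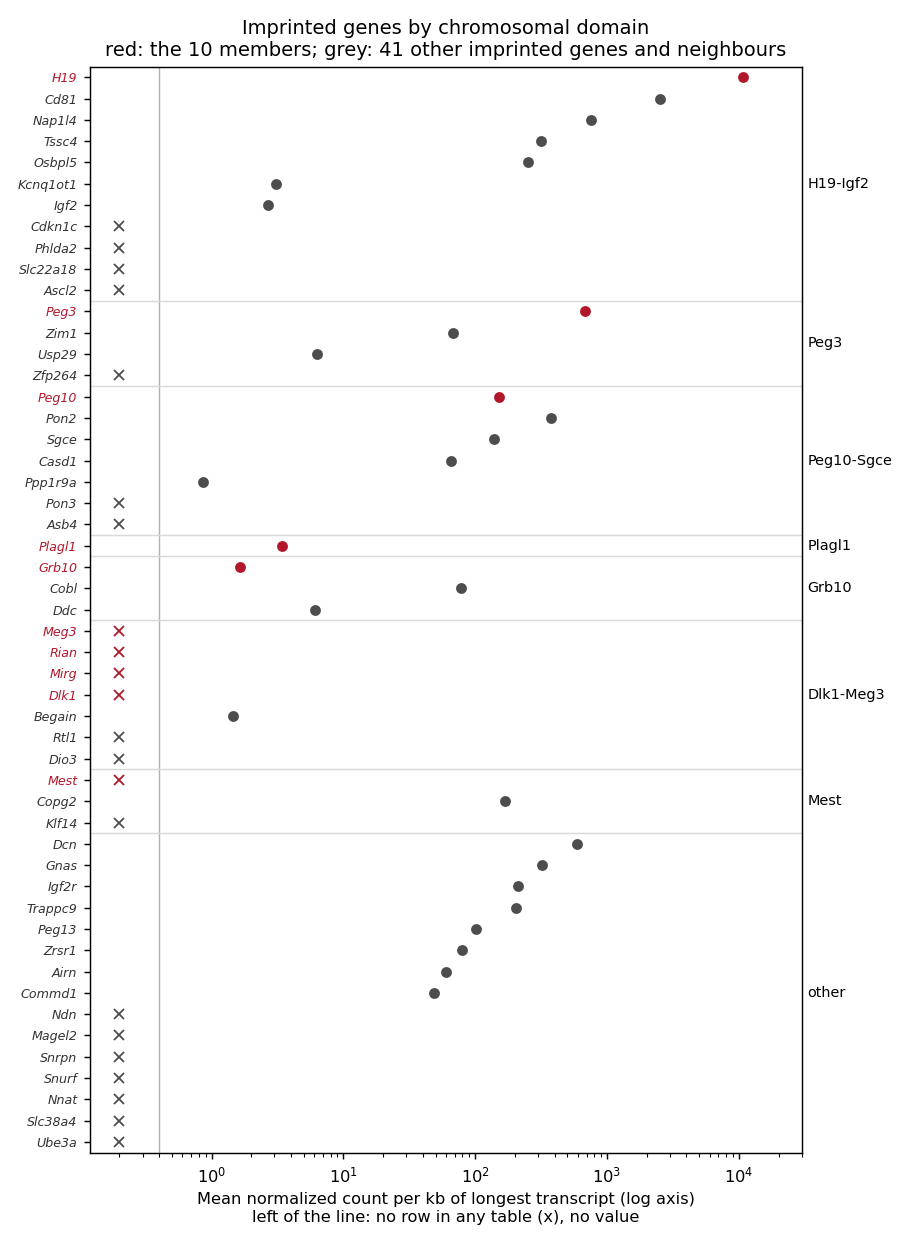
Mean normalized count per kb of the longest transcript (log x axis) for the 10 members (red) and 41 other imprinted genes and neighbours (grey), grouped by domain, with a cross in the left strip for a gene that has no row in any table and thus no value. The group labelled H19-Igf2 also holds genes of the Kcnq1 domain, such as Kcnq1ot1 and Cdkn1c. Of the genes shown, 3 of 4 in the Peg3 domain and 1 of 7 in the Dlk1-Meg3 domain (Begain) have a value. Of all annotated genes of the members' types, 33.6% had a row in any table. Zfp264, the Peg3 domain gene without a value, is annotated as a pseudogene and so is not of those types. The difference between the domains was not tested.

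The list of 41 other imprinted genes and neighbours had rows for 24, all of them in the D4 table, 4 in the Mettl3 table and 7 in the Mettl14 table. Of the 37 that share a gene type with the members, 21 had a row in the D4 table (background 32.0%), 4 in the Mettl3 table (6.05%) and 7 in the Mettl14 table (3.81%), and nothing was tested on these counts. Their mean normalized counts ran from 4.73 for Begain to 4090.3 for Cd81, with a median of 499. Igf2r, the maternally expressed receptor that clears IGF2, had rows in all 3 tables at 1862, or 210 per kb, and its antisense transcript Airn had a row in the D4 table at 82.7. The spans of Igf2r and Airn overlap on opposite strands, but whether their exons share bases was not checked. If they do, reads in the shared bases cannot be told apart without strand. Dcn, which encodes the matrix proteoglycan decorin, stood at 2776 with rows in the D4 and Mettl14 tables. Gnas, the gene of the stimulatory G protein subunit, stood at 1258 with a row in the D4 table. Kcnq1ot1, the long noncoding RNA of the Kcnq1 domain, had a mean normalized count of 286, which over its 93092 nt was 3.07 per kb. Grb10 had the lowest level per kb of its domain, where Cobl stood at 78.2 and Ddc at 6.05. The 17 genes without a row included Cdkn1c, Phlda2, Ndn, Magel2, Snrpn, Nnat and Ube3a.

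Because the study concerns m6A, the letters GGACT, the DNA form of a common m6A consensus, were counted in the longest transcript of each member on the sense strand. H19 held 6 in 2286 nt, or 2.62 per kb, more than 96.6% of the 10282 listed genes with a transcript sequence, whose median was 1.03 per kb. Mirg followed with 1.57 per kb, Grb10 with 1.38, Meg3 with 1.10 and Peg3 with 1.04. Plagl1 held 0.951, Dlk1 0.645, Peg10 0.600, Mest 0.375 and Rian 0.247 per kb. All 10 members held the letters at least once, as did 91.6% of the listed genes. A match is a stretch of letters and not a methylated site, and its relation to the levels was not tested.

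Promoter windows were held for 8 of the 10 members, 12 windows in all; H19 and Peg10 had none. The count of CpG ran from 0 for Rian and 1 for the second Meg3 window to 45 for the first Grb10 window. The Dlk1 window held 9 and the Mirg window 10, and the Mest windows 8, 17 and 17, the last of which overlap each other. The E-box letters CAGCTG, which myogenic factors such as MYOD1 are known to bind, were found on either strand in 1 of the 12 windows, the first of Mest, and in 16.3% of all windows. The letters GCCATNTT, a form of the YY1 motif, were found in 0 of the 12 and in 6.05% of all windows.

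**Figure D4:**
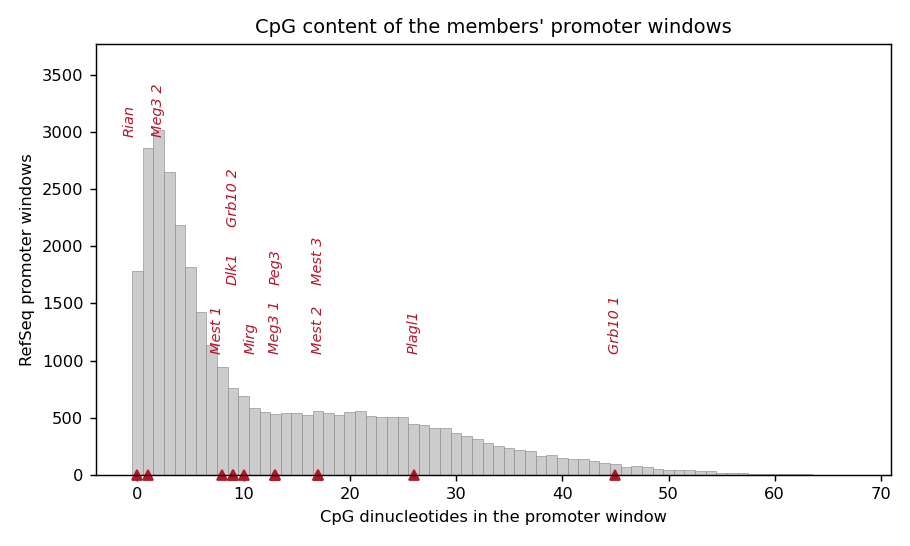
Number of RefSeq promoter windows of 300 bases (y axis) by the number of CpG they hold (x axis), with red triangles and names at the 12 windows of 8 members, numbered where a gene has several. The first Grb10 window (45) and the Plagl1 window (26) lie in the upper part of the range, and the Rian window (0) and the second Meg3 window (1) at its lower end.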

How the data were processed

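RNA-seq libraries of C2C12 cells in 4 groups of 2 were grouped by their titles. Reads were aligned to GRCm38 (mm10 in the submitters' processing notes) with hisat2 and assigned to genes of Ensembl 102 with featureCounts by the authors. Program versions are not given in the sources used here. The deposited mean normalized count is a signal that the authors computed with DESeq2, as an average of counts scaled for library depth. The tables also hold the authors' own fold change, its standard error, statistic and p-values, which were not used. With no values per library in use, no test and no further normalization was run. The tables used give no depth per library, and the read totals that the study lists in its supplement were not used here. Lengths, positions and transcripts came from GENCODE M21 (GRCm38, another release than the Ensembl 102 named in the methods), in which 10285 of 10289 identifiers were found. The deposited gene types include lincRNA, a class that M21 also uses, and the release that gave them is not stated. Promoters and microRNAs came from RefSeq tables on GRCm38.p6. Levels were divided by the length of the longest transcript in kb. Named genes were the 10 members, fixed lists of 41 imprinted genes and neighbours and of cell type markers, and microRNAs inside members (sequences of at most 2 hairpins per member, lowest numbers first). Members and lists were chosen with earlier results of these data known. Counting functions were tested on simulated data. Alternatives were matching by identifier, a mean normalized count of at least 10, other backgrounds and merged exon lengths. Python 3.11.15, pandas 2.3.3, NumPy 2.4.6, SciPy 1.17.1 and matplotlib 3.10.9 were used.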

Additional observations from a re-analysis of the deposited data

How the results depend on the processing

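The number of members with a row was 5 by name and by Ensembl identifier, and 4 once genes whose mean normalized count was under 10 were dropped, Grb10 being left out. The median share of listed genes below the members with a row was 71.8% by mean normalized count and 71.4% within the D4 table. It was 68.9% against protein-coding genes, 83.5% among genes at 10 or more (4 members in place of 5) and 53.0% per kb of the longest transcript. The median mean normalized count of these members, 1010.3, became 3476 with the same minimum, because Grb10 then leaves the set. Merged exons in place of the longest transcript gave 10007.7 per kb for H19, 446 for Peg3, 2.30 for Plagl1 and 0.923 for Grb10, and the same 152 for Peg10. Leaving out each replicate was not run, since no values per library were in use. No paired analysis was possible because no result comes from a test. The tables give no depth per library, and the low means of Plagl1 and Grb10 are where counting error weighs most.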
